A study of Mus musculus with 4 samples.

Results

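The genes described here are Stk19 and 7 of its neighbours on mouse chromosome 17: Dxo, Skiv2l, Nelfe, Ehmt2, Zbtb12, C2 and Mrps18b. They are 8 of the 16449 gene rows in the count table, matched by Ensembl identifier to the symbol. Stk19 was selected on its higher counts in the libraries labelled Tut1 knockout. The other 7 genes were added for their place on the chromosome, with earlier results of these data known. The difference between knockout and WT in these 8 genes is therefore given as a description. No p-value is printed for them, and whether a gene was called is stated only as part of that description.

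Embryos were taken at E11.5, and poly(A) RNA of the dorsal and medial pallium, the part of the forebrain that forms the neocortex and hippocampus, was read as Nanopore long reads in 4 libraries. The study lists all 4 as Tut1 f/f, that is, homozygous for a floxed Tut1 allele. The 2 WT libraries carried no Cre. The 2 libraries labelled Tut1 knockout carried Emx1-Cre, which acts in Emx1-expressing neural stem and progenitor cells and their descendants, so cells of other lineages in the same tissue keep the gene. Tut1 encodes the uridylyltransferase that adds the oligo(U) tail of U6 snRNA. How many embryos made up a library is not stated, so the spread between libraries may be partly technical.

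Total counts ran from 305642 to 397150 per library, and the median count of a tested gene lay between 19 and 25. Tut1 itself had 6 and 11 counts in WT and rose to 29 and 25 counts under the knockout label (log2 fold change 1.71 ± 0.40, SE, edgeR adjusted p = 0.0113), against the direction of that label. That call was lost without WT replicate 1, knockout replicate 1 or knockout replicate 2 (adjusted p from 0.133 to 0.2). Of the WT libraries only replicate 2 reached the count minimum of 10, so Tut1 was tested because of its counts under the knockout label. A count over the whole gene includes transcripts from a recombined allele and cannot check the deletion. Levels below are in CPM, counts scaled to a library of 1000000 counts. Pallium markers were present in all 4 libraries (summed level 2142 and 1936 CPM in WT and 1254 and 1379 CPM in knockout), with Lhx2 the one called lower among 6 tested. Over all genes tested, edgeR called 1.40% higher and 0.663% lower in knockout (adjusted p below 0.05), the share to set beside this and the following counts. Emx1, a transcription factor that marks the dorsal pallium, had 7 counts or fewer in every library. Markers of other cell types differed too: neuronal markers summed to 1027 and 999.9 CPM in WT and 1398 and 1257 CPM in knockout (Dcx called higher among 5 tested), and mesenchymal markers to 90.9 and 232 CPM in WT and 433 and 288 CPM in knockout (Col1a2, which reached the count minimum of 10 in the knockout libraries only, called higher). Endothelial markers summed to 45.4 and 61.5 CPM in WT and 112 and 104 CPM in knockout, while the red cell sums overlapped (1324 and 1740 CPM against 2137 and 1434 CPM). Among 5 red cell genes tested, Hbb-bh1 was called lower (log2 fold change -1.80 ± 0.46, SE, edgeR adjusted p = 0.0279) and Hba-x, at 1.07 ± 0.31, was not called (adjusted p = 0.0563). Their part in the values of the 8 genes was not tested.

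Stk19 was long annotated as a serine/threonine kinase and has since been described as a DNA-binding factor of transcription-coupled nucleotide excision repair, the pathway that clears lesions at which RNA polymerase II has stalled. Its cluster lies in the class III region of the major histocompatibility complex, a stretch packed with housekeeping genes. Several of these face each other head to head, so that transcription of both starts from one short stretch of DNA and runs in opposite directions.

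On GRCm38, Stk19 occupies chr17:34823993-34836945 on the minus strand and Dxo occupies chr17:34837019-34839233 on the plus strand, with 73 bases between their 5′ ends. Skiv2l (chr17:34839228-34850210, minus) meets the 3′ end of Dxo with an overlap of 6 bases. It stands head to head with Nelfe (chr17:34850391-34856372, plus) across 180 bases. C2 (chr17:34862604-34898265, minus) and Ehmt2 (chr17:34898469-34914052, plus) are separated by 203 bases, and Zbtb12 (chr17:34879483-34896867, plus) lies inside C2 on the opposite strand. Mrps18b (chr17:35910379-35916389, minus) is 1073433 bases from Stk19 and has 44 bases between its 5′ end and that of Ppp1r10.

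Stk19 has a close copy on the same strand of chromosome 17, the unprocessed pseudogene Stk19-ps1 at chr17:34744753-34747154, with Skiv2l-ps1 between them. The pseudogene transcript of 517 bases aligned to bases 307 to 834 of the 1120-base transcript Stk19-201, all within the coding sequence (bases 70 to 834), and 97.1% of 517 aligned bases were identical. The first 180 bases of the longest stretch without a gap are shown because they bear on which locus a Stk19 read can be assigned to. They span exons 4 to 5 of Stk19-201 (bases 426 to 605) and exons 2 to 3 of Stk19-ps1-201 (bases 109 to 288), and capitals mark the 7 bases that differ.
Stk19-201, chr17:34824786-34832129, minus strand, exons only: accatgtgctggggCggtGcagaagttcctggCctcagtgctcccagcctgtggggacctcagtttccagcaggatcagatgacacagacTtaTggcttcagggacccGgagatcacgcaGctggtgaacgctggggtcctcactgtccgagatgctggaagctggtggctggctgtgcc
Stk19-ps1-201, chr17:34745260-34746759, minus strand, exons only: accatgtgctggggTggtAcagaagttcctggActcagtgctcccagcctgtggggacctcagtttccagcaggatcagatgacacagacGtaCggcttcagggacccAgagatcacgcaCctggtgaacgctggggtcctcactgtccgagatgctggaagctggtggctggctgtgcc
The longest run without any difference was 140 bases. Of the 3266 distinct 31-base words in annotated Stk19 transcripts, 216 (6.61%) also occurred in Stk19-ps1 and none in another gene. The pseudogene had no row of its own in the counts, and how reads matching both loci were assigned is not stated. Reads of the pseudogene may therefore sit in the Stk19 row, which bears on every Stk19 value given here, and their part in it was not tested.

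Other members differ in how well reads can be assigned to them. Dxo, Nelfe and Zbtb12 shared no 31-base word with another annotated gene. Mrps18b shared 356 of 2136 words (16.7%) with Gm13552, a processed pseudogene at chr2:59564268-59564684, whose own row held 1 and 4 counts in WT and 3 and 3 counts in knockout. C2 shared 40.2% of its words with Gm20547, an overlapping gene on the same strand that had no row of its own, so its reads may likewise sit in the C2 row. Skiv2l shared 157 of 5221 words (3.01%) with 3 genes, mostly its own pseudogene Skiv2l-ps1, and Ehmt2 shared 120 of 5786 words (2.07%), spread over 608 genes. Whether strand was used in counting is not stated, so reads from Zbtb12 and the C2 intron or exon opposite to it, and from the overlapping ends of Dxo and Skiv2l, cannot be told apart with certainty.

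RefSeq promoter windows (GRCm38.p6, 250 bases before to 50 after a start) matched 3 of the 8 genes, Mrps18b, Ehmt2 and Zbtb12, with 4 windows in all. Those of Mrps18b and of the first Ehmt2 start are shown because the members they belong to lay on opposite sides of 0 between knockout and WT. Capitals mark matches, on either strand, to any of 6 motifs: the CAAT box as CCAAT, the GC box as GGGCGG, the TATA box as TATAAA, the ETS core as CCGGAAG, the NRF1 core as CGCATGCG and the YY1 core as AAGATGG.
Mrps18b, chr17:35916391-35916690, minus strand: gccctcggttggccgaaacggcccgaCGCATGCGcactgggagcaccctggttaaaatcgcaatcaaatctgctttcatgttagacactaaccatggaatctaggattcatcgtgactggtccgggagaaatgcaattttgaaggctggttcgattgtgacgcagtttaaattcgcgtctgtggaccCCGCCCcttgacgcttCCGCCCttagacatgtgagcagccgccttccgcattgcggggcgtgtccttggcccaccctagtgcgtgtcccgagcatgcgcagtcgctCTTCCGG
Ehmt2, chr17:34898224-34898523, plus strand: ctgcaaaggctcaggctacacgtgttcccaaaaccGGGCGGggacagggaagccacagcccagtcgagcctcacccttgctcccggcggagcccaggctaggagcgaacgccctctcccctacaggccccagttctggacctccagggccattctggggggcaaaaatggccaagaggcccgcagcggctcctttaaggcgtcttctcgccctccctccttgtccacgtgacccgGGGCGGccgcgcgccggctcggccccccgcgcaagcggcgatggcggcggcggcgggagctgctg
No match overlapped another in the 2 printed windows. The GC box was the one motif found in all 4 windows, and 35.7% of 32851 promoter windows in the table hold it. The Mrps18b window also held the ETS core at bases 294 to 300 (found in 8.86% of all windows) and the palindromic NRF1 core at bases 27 to 34 (found in 1.87%). RefSeq starts Mrps18b 51 bases upstream of the GENCODE 5′ end used for the distances above. Its starts for Ehmt2 lie 5 and 501 bases downstream of the GENCODE 5′ end, and its start for Zbtb12 lies 15076 bases downstream. The printed Mrps18b window thus holds no base of the GENCODE Mrps18b gene. It runs into Ppp1r10 (chr17:35916434-35932283, plus strand), so its matches cannot be assigned to Mrps18b alone. The CAAT box, the TATA box and the YY1 core, which 37.4%, 13.6% and 6.34% of all windows hold, had no match in the 4 windows. GC content was 57.0% in the Mrps18b window and 70.3% in the Ehmt2 window, against a median of 52.7% over all windows.

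Stk19 had 4 and 13 counts in WT and 58 and 52 counts in knockout. Scaled by library size, the levels were 12.1 and 36.3 CPM in WT (24.2 ± 17.1, SD, n = 2) and 154 and 181 CPM in knockout (167 ± 18.7, SD, n = 2). Both knockout libraries lay above both WT libraries, and the WT libraries differed more from each other, in proportion, than the knockout libraries did. How many of all tested genes separate in this way was not counted, so nothing is read from it, for Stk19 or the genes below. The log2 fold change of knockout against WT was 2.74 ± 0.36 (SE, edgeR), a ratio of group means of 6.91. This ranked 6 from the highest among 5878 genes tested, whose median was -0.014. The WT libraries moved the value most. Without WT replicate 1 the log2 fold change was 2.18, and without WT replicate 2 it was 3.73.

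Dxo, which encodes a decapping exoribonuclease that removes incomplete and noncanonical caps, had 14 and 20 counts in WT and 3 and 8 counts in knockout. These counts correspond to 49.1 ± 9.52 CPM in WT and 17.9 ± 14.0 CPM in knockout (SD, n = 2 each). The groups did not overlap, in the direction opposite to Stk19. The log2 fold change was -1.55 ± 0.51 (SE), at rank 12 from the lowest of 5878. It was -0.82 without knockout replicate 1, which held the 3 counts, and -2.58 without knockout replicate 2. Dxo reached the count minimum of 10 in the WT libraries only, so that it was tested because it was high there, which bears on its rank. It was not among the genes called.

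Nelfe, the RNA-binding subunit of the negative elongation factor that holds paused RNA polymerase II, had 43 and 49 counts in WT and 35 and 19 counts in knockout. The levels were 134 ± 4.68 CPM and 79.5 ± 19.1 CPM (SD, n = 2 each), with both knockout libraries below both WT libraries, and the log2 fold change was -0.72 ± 0.28 (SE). Ehmt2, the histone methyltransferase G9a, had 18 and 38 counts in WT and 25 and 14 counts in knockout, and its groups overlapped. Its log2 fold change of -0.47 ± 0.35 (SE) depended on WT replicate 2, without which it was 0.088. Neither gene was among those called.

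The other 3 cluster genes were too low to enter the test. Skiv2l, the helicase of the Ski complex that feeds RNA to the cytoplasmic exosome, had 3 and 6 counts in WT and 6 and 3 counts in knockout, so the groups overlapped fully. Zbtb12, a BTB zinc finger protein, had 5 and 3 counts in WT and 0 and 2 counts in knockout. C2, a complement protease, had 1 count in WT replicate 1 and 0 counts elsewhere, which allows up to 8.38 CPM in WT replicate 2, 7.97 CPM in knockout replicate 1 and 10.4 CPM in knockout replicate 2 (3 counts per library, counting error only). No difference in these 3 genes was detectable at this depth.

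Mrps18b, a protein of the small subunit of the mitochondrial ribosome, had 10 and 14 counts in WT and 31 and 30 counts in knockout. The levels were 34.7 ± 6.23 CPM and 93.3 ± 15.4 CPM (SD, n = 2 each), and the groups did not overlap. The log2 fold change was 1.40 ± 0.36 (SE), at rank 90 from the highest. The genes on either side of it gave other values. Atat1, the alpha-tubulin acetyltransferase, had 80 and 83 counts in WT and 103 and 95 counts in knockout (log2 fold change 0.34 ± 0.20, SE, edgeR adjusted p = 0.481). Ppp1r10, a regulatory subunit of protein phosphatase 1, had 37 and 58 counts in WT and 59 and 46 counts in knockout (0.20 ± 0.25, adjusted p = 0.815). Both were named after their values were seen.

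**Figure D1:**
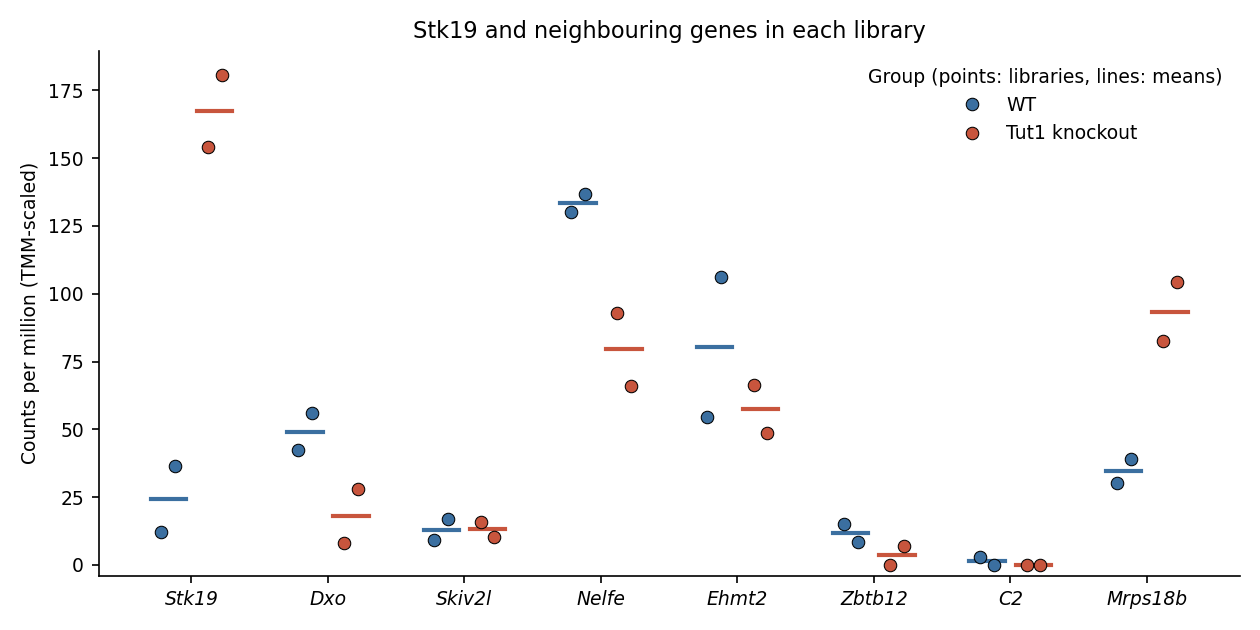
Level of each of the 8 genes in every library, in CPM with TMM scaling (vertical axis, linear). Points are libraries and lines are group means, 2 libraries each. Stk19 and Mrps18b lie higher in both knockout libraries, Dxo, Nelfe and Zbtb12 lie lower in both, and Skiv2l, Ehmt2 and C2 overlap. Zbtb12 rests on 5 and 3 counts in WT and 0 and 2 counts in knockout. The share of all tested genes without overlap was not counted, so nothing is read from the separation.

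In all, 5 of the 8 genes passed the filter on low counts and 3 did not. Of the 5, Stk19 and Mrps18b were among the 82 genes called higher in knockout (adjusted p below 0.05, 1.40% of all genes tested), and none was among the 39 called lower (0.663%). Over both directions 121 of 5878 genes were called (2.06%). Since this contrast was used to select Stk19, nothing is read from that count. With total counts as the only scaling, 105 genes were called higher and 24 lower, and the 5 genes kept their directions. Mrps18b was no longer called with replicate number as a block or without WT replicate 1, knockout replicate 1 or knockout replicate 2.

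The share of Stk19 within its head-to-head pair needs no scaling between libraries. Stk19 held 4 of the 18 counts of Stk19 and Dxo together in WT replicate 1 (22.2%, exact Clopper-Pearson 95% interval 6.41 to 47.6) and 13 of 33 in WT replicate 2 (39.4%, 22.9 to 57.9). It held 58 of 61 in knockout replicate 1 (95.1%, 86.3 to 99.0) and 52 of 60 in knockout replicate 2 (86.7%, 75.4 to 94.1). In WT more reads of the pair came from Dxo, and in the knockout libraries most came from Stk19. The intervals cover counting error only, and the shares follow in part from the selection of Stk19.

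**Figure D2:**
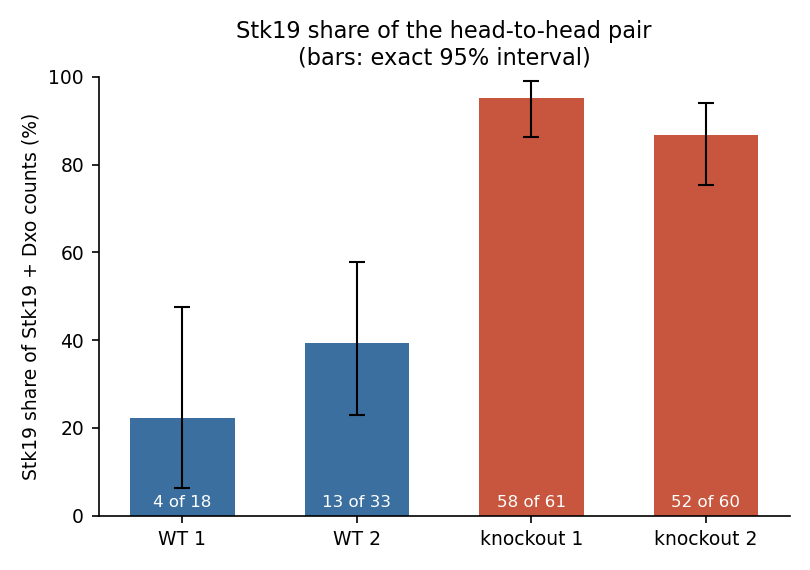
Share of the counts of Stk19 and Dxo that belong to Stk19 (vertical axis, percent) in each library, with exact 95% intervals of counting error. The WT shares are 22.2% and 39.4%, and the knockout shares are 95.1% and 86.7%.

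Across the 7 genes of the cluster, Stk19 held 4.55% and 10.1% of the counts in WT and 45.7% and 53.1% in knockout. The other 6 cluster genes together had 254 and 324 CPM in WT and 183 and 160 CPM in knockout, so their sum lay lower in both knockout libraries.

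Among all tested genes, 175 pairs stand head to head with at most 1000 bases between their 5′ ends, and the median absolute difference between the log2 fold changes of the partners was 0.33. The Stk19 and Dxo pair had the largest difference, 4.28, followed by Rpgrip1l and Fto with 2.13. The Mrps18b and Ppp1r10 pair was at rank 9 with 1.20. In 82 of the 175 pairs the partners had opposite signs, and in none were both partners called (edgeR), while 1 was called in 5 pairs. This comparison was chosen after the values were seen, and the place of the Stk19 and Dxo pair follows in part from the selection of Stk19. Dxo rested on 3 and 8 counts in knockout. The comparison is a description.

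**Figure D3:**
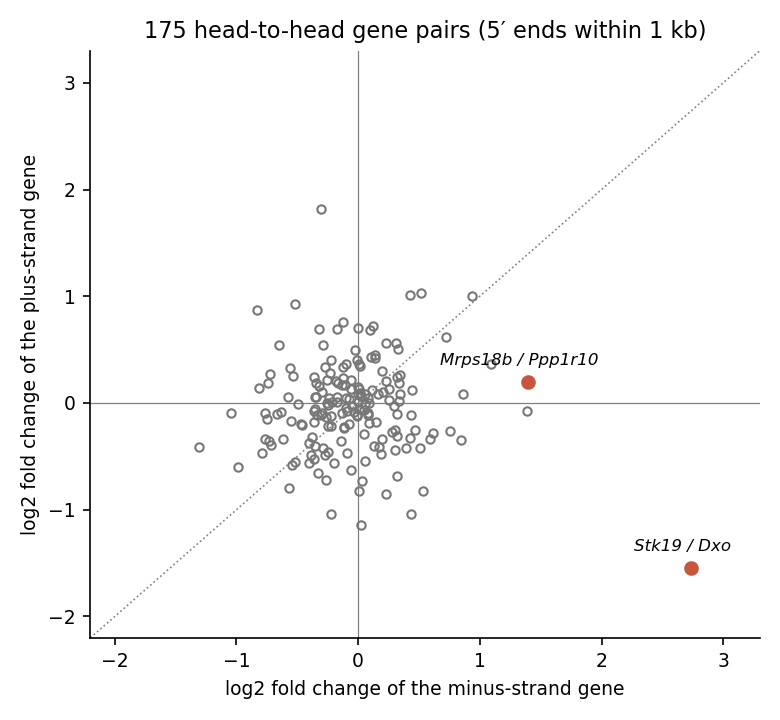
Log2 fold change of knockout against WT for the minus-strand gene (horizontal axis) and the plus-strand gene (vertical axis) of 175 head-to-head pairs. The dotted line marks equal values. The Stk19 and Dxo pair lies alone at the lower right, at 2.74 and -1.55.

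Position alone gave the wider neighbourhood. Within 100 kb of Stk19 the 3 other tested genes were Dxo, Nelfe and Ehmt2, whose values, all below 0, are described above. Within 500 kb, 18 genes besides Stk19 were tested, of which edgeR called 1 (beside 2.06% of all genes tested), 5 had higher and 13 lower values, and the median log2 fold change was -0.35. Leaving out the listed genes, 10 of 15 had lower values and the median was -0.26. Within 1000 kb, 1 of 31 genes was called and the median was -0.29. On the rest of chromosome 17, 2 of 259 tested genes were called (0.772%), with a median of 0.038.

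The called gene within 500 kb was Aif1, which encodes a calcium-binding protein of microglia and macrophages and lies 334 kb from Stk19. It had 9 and 6 counts in WT and 39 and 21 counts in knockout, and it rose by 2.02 ± 0.41 on the log2 scale (SE, edgeR adjusted p = 0.00316). The call was lost without knockout replicate 1 (adjusted p = 0.259). Aif1 reached the count minimum of 10 in the knockout libraries only, as did the microglial markers Cx3cr1 (6 and 6 counts in WT, 32 and 27 in knockout) and Tyrobp, so that they were tested because they were high there. Of 10 microglial markers, 9 had a row and 5 of these were too low to be tested, and no share of called markers is read from the list. Csf1r, the receptor on which microglia depend, reached the minimum in both groups with 16 and 20 counts in WT and 58 and 34 counts in knockout, and it rose by 1.39 ± 0.30 on the log2 scale (SE, edgeR adjusted p = 0.0062). DESeq2 did not call it. The summed level of the marker list was 109 and 106 CPM in WT and 404 and 351 CPM in knockout. Among the defining markers, C1qa was at 0 in both WT libraries and had 1 and 2 counts in knockout, and P2ry12 had 4 and 0 counts in WT and 1 and 3 counts in knockout. In bulk tissue, more cells of a type and more RNA per cell cannot be told apart, and the part of these cells in the values of Stk19 and Aif1 was not tested.

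Of the remaining tested neighbours within 500 kb that are not listed genes, the highest values belonged to Rnf5, a ubiquitin ligase of the endoplasmic reticulum (log2 fold change 0.32 ± 0.29, adjusted p = 0.697), Ddah2 (0.25 ± 0.27, adjusted p = 0.764) and Agpat1, an acyltransferase of phospholipid synthesis (0.25 ± 0.48, adjusted p = 0.89). The lowest belonged to Csnk2b, the regulatory subunit of casein kinase 2 (-0.94 ± 0.45, adjusted p = 0.334), Ppt2, a lysosomal thioesterase (-0.61 ± 0.44, adjusted p = 0.596), and 1110038B12Rik (-0.56 ± 0.28, adjusted p = 0.341). Each error is an SE and each p is from edgeR. None of these 6 passed the test.

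**Figure D4:**
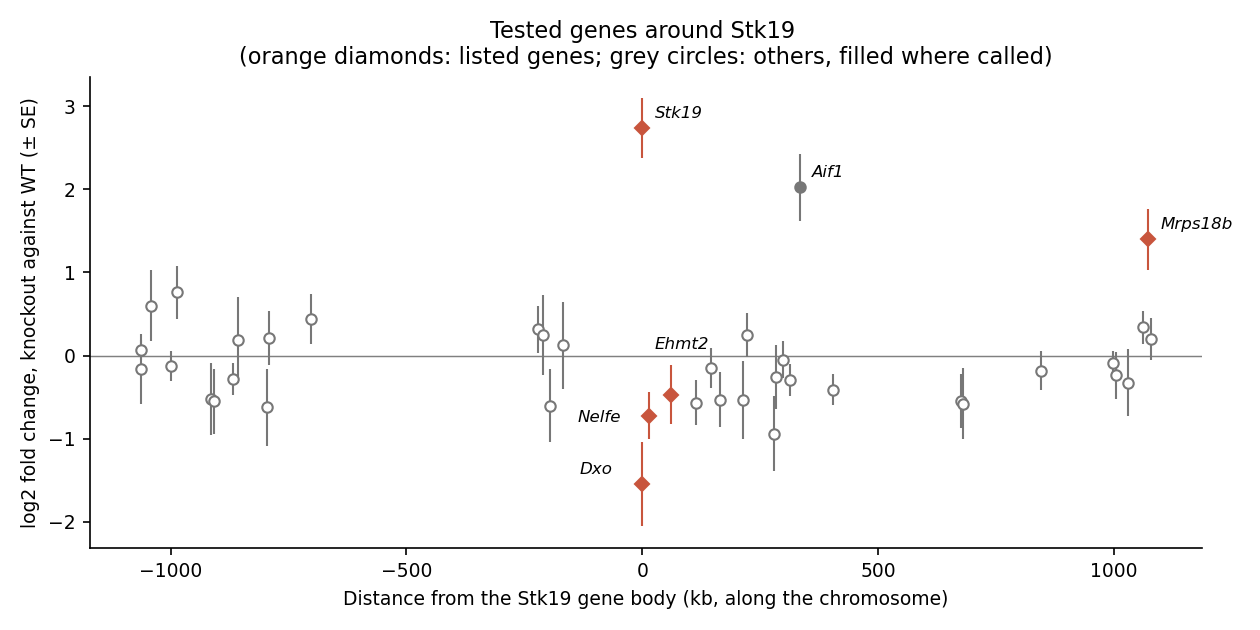
Log2 fold change of knockout against WT with its SE (vertical axis) for the tested genes within 1100 kb of Stk19, against distance from the Stk19 gene body in kb (horizontal axis). Orange diamonds are the listed genes and grey circles the others, filled where called. Stk19 is at 2.74, Aif1 (the filled grey circle) at 2.02 and Mrps18b at 1.40, and all other genes shown lie between -1.55 and 0.76.

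On the whole of chromosome 17, edgeR called 4 of the tested genes, all with higher values in knockout. They were Stk19, which was selected on this contrast, 1 of 31 other tested genes within 1000 kb and 2 of 259 beyond. The shares were 3.23% and 0.772%, beside 1.40% called higher and 0.663% called lower over all genes tested. Nothing is read from their common direction. Beyond 1000 kb from Stk19, where edgeR called 2 higher and none lower (20 and 14 at an unadjusted p below 0.05), limma-voom called 4 higher and 2 lower. DESeq2 called none there, with an adjusted p for 128 of 259 genes. Besides Stk19, Aif1 and Mrps18b, the gene called by edgeR was Cdkn1a, the p53-induced inhibitor of cyclin-dependent kinases, 5723 kb from Stk19. Cdkn1a had 5 and 13 counts in WT and 37 and 27 counts in knockout (log2 fold change 1.87 ± 0.39, SE, edgeR adjusted p = 0.0047). Of its WT libraries only replicate 2 reached the count minimum, so Cdkn1a was tested because of its counts in knockout. The WT counts of Cdkn1a and Stk19 were thus both low and uneven between libraries.

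In WT, the levels of the 8 genes per kb of the longest transcript spanned from 83.1 CPM per kb for Nelfe (81.1 and 85.2 in the 2 libraries) to 0.573 CPM per kb for C2. Dxo (27.9 and 36.8) and Mrps18b (28.1 and 36.2) followed Nelfe and overlapped each other. Ehmt2 (13.5 and 26.4), Stk19 (5.97 and 17.9) and Zbtb12 (8.15 and 4.51) came next. On this scale Ehmt2 lay below Dxo and Mrps18b in both libraries, whereas by mean transcript length it overlapped both and without division by length its mean was at place 2, and Stk19 overlapped both Ehmt2 and Zbtb12. Skiv2l had 2.01 and 3.71 CPM per kb. Stk19 was at place 5 of 8 in WT, also without division by length and by mean transcript length. In the knockout libraries it was at place 2 with 82.4 CPM per kb (75.9 and 88.9), overlapping Mrps18b (76.4 and 96.6), and at place 1 under both other length treatments.

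The tested genes most like Stk19 over the 4 libraries were taken by the root mean square difference of centred log2 CPM. Chd5, a chromatin remodeler of neurons, was closest (0.15), with 4 and 13 counts in WT and 52 and 40 counts in knockout. Rn7sk, the noncoding RNA that holds P-TEFb inactive, followed (0.25) with 0 and 1 counts in WT and 13 and 14 counts in knockout. Cbln2, a synaptic organizer (0.27), Tyrobp, an adaptor of microglial receptors (0.34), and Dhrs3, a retinaldehyde reductase (0.41), completed the 5. None of the 5 lies on chromosome 17. The likeness was the criterion of choice and is a description.

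The partners of the members in their pathways were read from lists. Of 21 genes of transcription-coupled repair, 20 had a row and 12 were tested. None was called higher by edgeR, DESeq2 or limma-voom, none had a higher value at an unadjusted p below 0.05, and 1 was called lower by edgeR, beside 0.663% of all genes tested, while 2 had a lower value at an unadjusted p below 0.05. The called gene was Gtf2h3, a subunit of the repair and transcription factor TFIIH, with 196 and 155 counts in WT and 120 and 95 counts in knockout (it fell by 0.66 ± 0.18 on the log2 scale, SE, edgeR adjusted p = 0.0429). The call was lost with DESeq2 (adjusted p = 0.465), with total-count scaling (adjusted p = 0.0776) and without WT replicate 1, knockout replicate 1 or knockout replicate 2 (adjusted p from 0.246 to 0.51). Ercc6, the translocase CSB that recognises the stalled polymerase, had 50 and 56 counts in WT and 56 and 44 counts in knockout, with a log2 fold change of -0.032 ± 0.24 (SE). The median log2 fold change of the list was -0.13, beside -0.014 over all genes tested.

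For RNA decay, the setting of Dxo and Skiv2l, 13 of 20 genes were tested and none was called by edgeR, DESeq2 or limma-voom. At an unadjusted p below 0.05 edgeR had 1 lower gene and 1 higher gene. The most abundant, the exoribonuclease Xrn1, had 70 and 90 counts in WT and 99 and 70 counts in knockout (log2 fold change 0.13 ± 0.21, SE, edgeR adjusted p = 0.856). Ttc37, the scaffold of the Ski complex, had 8 and 9 counts in WT and 12 and 12 counts in knockout (0.55 ± 0.48, adjusted p = 0.686). The list's median was 0.13. Of 5 partners of Nelfe in the pausing factors NELF and DSIF, 2 were tested and neither was called by the 3 tools or at an unadjusted p below 0.05. Supt5, the large subunit of DSIF, had 51 and 62 counts in WT and 46 and 52 counts in knockout.

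Of 11 partners of Ehmt2 in methylation of silent chromatin, 9 were tested and 1 was called lower by edgeR (beside 0.663% of all genes tested), Cbx5, a heterochromatin protein that binds the methylated histone. It had 94 and 104 counts in WT and 63 and 49 counts in knockout and fell by 0.77 ± 0.21 on the log2 scale (SE, edgeR adjusted p = 0.0448). That call was lost with DESeq2 (adjusted p = 0.521), with no filter (adjusted p = 0.0652), with total-count scaling (adjusted p = 0.074) and without any 1 of the 4 libraries (adjusted p from 0.173 to 0.347). Ehmt1, the partner methyltransferase of Ehmt2, had 122 and 123 counts in WT and 102 and 75 counts in knockout (log2 fold change -0.42 ± 0.19, SE, edgeR adjusted p = 0.286). At an unadjusted p below 0.05, 3 genes of this list had lower values and 1 a higher value. The list's median was -0.26. Of 16 complement genes, 9 had a row and none was tested, the most abundant being the protease Masp1 with 5 and 10 counts in WT and 1 and 5 counts in knockout.

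Of 29 other proteins of the small mitochondrial ribosomal subunit, 15 were tested. None was called higher by edgeR, DESeq2 or limma-voom, 1 had a higher and 1 a lower value at an unadjusted p below 0.05, and 1 was called lower by edgeR, beside 0.663% of all genes tested. This was Mrps24, with 293 and 280 counts in WT and 225 and 148 counts in knockout (it fell by 0.58 ± 0.15 on the log2 scale, SE, edgeR adjusted p = 0.0316), a call lost with DESeq2 (adjusted p = 0.309), with total-count scaling (adjusted p = 0.0639) and without any 1 library (adjusted p from 0.0529 to 0.319). Mrps18b has a pair of paralogs. Mrps18a had 2 and 2 counts in WT and 9 and 3 counts in knockout and was not tested. Mrps18c had 11 and 6 counts in WT and 10 and 10 counts in knockout (log2 fold change 0.28 ± 0.51, SE, edgeR adjusted p = 0.877). The list's median was -0.17, with Mrps18b left out of it.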

How the data were processed

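Poly(A)-enriched RNA of 4 libraries was read as Nanopore long reads. Per the methods of the study, the authors used minimap2 with the Ensembl transcriptome of the mouse, followed by FLAIR, and the build in the labels is GRCm38. They deposited raw read counts per gene, without normalization. How isoforms were summed and how reads matching several genes were treated is not stated.

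Symbols and positions came from GENCODE M21 (GRCm38), which matched 16436 of 16449 identifiers. Coordinates are 1-based. Counts were fitted with edgeR 4.0.16 in R 4.3.3 (filterByExpr with minimum count 10 and minimum total 15, TMM, glmQLFit and glmQLFTest in default form, two-sided, no covariate), leaving 5878 genes. Adjustment was by Benjamini-Hochberg across these genes, and an adjusted p below 0.05 was called. The fit had 2 residual and 37.5 prior degrees of freedom, and the biological coefficient of variation was 10.5%. Levels in CPM used TMM-scaled library sizes, and log2 CPM a prior count of 2. The fitting step was tested on simulated data. Transcripts were aligned with Biopython 1.88. Intervals were exact Clopper-Pearson, 95%.

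Groups came from the sample labels, and total counts ran from 305642 to 397150. The genes and lists were chosen with earlier results of these data known. Genes named were the 8 genes, neighbours within 500 kb that were called or had the 3 highest or 3 lowest values, called or most abundant genes of the partner lists (at most 5 a list), the 5 genes most like Stk19, and Tut1. Ercc6, Ttc37, Ehmt1, Mrps18a, Mrps18c, Atat1, Ppp1r10, Cdkn1a, Rpgrip1l and Fto, and the cell type markers Lhx2, Emx1, Dcx, Col1a2, Hbb-bh1, Hba-x, Csf1r, Cx3cr1, C1qa and P2ry12, were added after their values were seen. Alternatives were median-of-ratios scaling, total counts, other filters, DESeq2 1.42.0, limma-voom (limma 3.58.1), the bias-adjusted quasi-likelihood form, a replicate block and leaving out each library. DESeq2 gave no adjusted p for 2963 of the tested genes, through its filter on mean count. An item of the marker lists is not reported here.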

Additional observations from a re-analysis of the deposited data

How the results depend on the processing

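The number of genes called was 121. It was 12 with DESeq2 and 3 to 108 when 1 library was left out (75 without WT replicate 1, 108 without WT replicate 2, 3 without Tut1_KO replicate 1 and 35 without Tut1_KO replicate 2). The Stk19 log2 fold change lay between 2.18 and 3.73 when 1 library was left out and between 2.73 and 2.83 under the 8 other alternatives. The number called within 500 kb of Stk19 was 1, and it was 0 with DESeq2 (which gave no adjusted p for Aif1) and 0 to 1 when 1 library was left out, with 0 without Tut1_KO replicate 1. Ehmt2 lay between -0.86 (without WT replicate 1) and 0.088 (without WT replicate 2), where its sign turned. Dxo and Nelfe were below 0 and not called under every alternative that gave a value. Stk19 was at place 5 of 8 in WT under both other length treatments. The pooled share of Stk19 was 33.3% in WT and 90.9% in knockout over Stk19 and Dxo, and 7.83% and 48.9% over the 7 cluster genes. DESeq2 gave no adjusted p for Dxo, Mrps18b and Tut1 either. The causes of these changes were not tested.

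With the replicate block 76 genes were called, Mrps18b was not called (log2 fold change 1.42), and Gtf2h3, Cbx5 and Mrps24 lost their calls. The deviations of WT replicate 1 and knockout replicate 1 from their group means did not go together (r = -0.061). This is a single comparison, and it cannot show whether same-numbered libraries were collected or processed together. Counts of under 60 for Stk19 and Dxo, and of under 10 for Skiv2l, Zbtb12 and C2, limit what these 4 libraries can show.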
